A study of Mus musculus with 28 samples.

Results

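The RNAs described here were the 100 most abundant spliceosomal small nuclear RNAs (snRNAs) in mouse plasma and its extracellular vesicles (EVs), out of 1346 snRNA rows and 80668 RNA rows in all. They were selected on measured values, as the snRNA rows with the highest mean level over all 28 libraries, in the deposited RPM, which are read counts divided by 1 number per library, so their high level is no result. The libraries came from 14 female wildtype C57BL/6N mice aged 2 months (n = 3), 6 months (n = 4), 8 months (n = 3), 12 months (n = 2) or 18 months (n = 2), with no treatment other than anaesthesia. From the blood of each mouse, taken once and not pooled, platelet-free plasma was spun in an ultracentrifuge, and 1 small RNA library was made from the EV-enriched pellet (called EVs here) and 1 from the EV-depleted supernatant, the free circulating fraction (called plasma). A pellet of this kind is enriched in vesicles and not pure. Each age was a separate set of animals, and the oldest ages rest on 2 mice each.

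Small nuclear RNAs are short nuclear RNAs that, bound to proteins, form the spliceosome, the machine that removes introns from messenger RNA precursors. U1 pairs with the start of the intron and U2 with its branch site, whereas U4, U5 and U6 enter later as a joint particle, U4 holding U6 inactive by base pairing until U6 joins the catalytic core and U5 aligning the exons. A minor spliceosome, with U11, U12, U4atac and U6atac in place of U1, U2, U4 and U6, removes a small class of introns, and U7 serves the processing of histone messages. Mouse genomes carry many copies of the U1, U2 and U6 genes, most of them pseudogenes named with the prefix Gm.

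Of the 100 members, 6 carried an Rnu name (Rnu1a1, Rnu1b1, Rnu1b2, Rnu1b6, Rnu2-10 and Rnu5g) and 94 a Gm name. A transcript of the same identifier in GENCODE M21 (GRCm38, the assembly also called mm10) was found for 97 of them, and the other 3, further transcripts of Gm23444, had no sequence. Copies were typed by alignment to the 11 snRNAs that GENCODE names Rnu (at least 80% identity over at least 50% of the copy). This gave 60 U1 copies, 13 U2, 5 U5 and 5 U6. Since GENCODE names no Rnu gene for U4, U4atac or U6atac, copies left over were searched for 1 stretch typical of each, agctttgcg for U4, cttggggtt for U4atac and ccccttgac for U6atac, a step added after the data were seen. It typed 7 copies as U4, 1 as U4atac (Gm22710) and 1 as U6atac (Gm23031), and 5 stayed without a type. Among the 1246 snRNAs outside the 100, by contrast, 595 were U6 copies and 26 were U1 copies. By position, 54 members lay between genes, 34 in an intron and 9 over an exon of another gene. A run of 8 U1 members lay at chr3:96328425-96488893.

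The sequences on which the results turn are shown first, from GENCODE M21, 5′ to 3′ and in DNA letters. Among U1 genes, Rnu1a1 lies at chr11:87422867-87423030 (plus strand, in an intron of Tex14) and Rnu1b1 at chr3:96359953-96360117 (minus strand, between genes), and Gm23680, the U1 copy with the largest fold change between fractions, at chr10:12363410-12363573 (plus strand, between genes). Capitals mark positions 81 to 100 in Rnu1a1 and Gm23680, and position 33 in Rnu1b1.
Rnu1a1: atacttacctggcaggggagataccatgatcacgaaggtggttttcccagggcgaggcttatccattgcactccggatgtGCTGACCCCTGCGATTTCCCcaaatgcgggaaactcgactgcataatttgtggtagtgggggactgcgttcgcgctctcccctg
Rnu1b1: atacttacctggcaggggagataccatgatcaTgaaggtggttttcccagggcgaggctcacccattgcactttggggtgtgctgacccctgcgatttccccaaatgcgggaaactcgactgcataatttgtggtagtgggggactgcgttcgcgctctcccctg
Gm23680: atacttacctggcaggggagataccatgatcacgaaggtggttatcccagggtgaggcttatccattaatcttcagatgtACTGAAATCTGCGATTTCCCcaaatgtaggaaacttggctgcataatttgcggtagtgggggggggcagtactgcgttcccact

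The next sequences stand for U2, U4, U4atac, U6atac and U6, 1 or 2 of each, and show how little these types share. Rnu2-10 (chr11:101658238-101658428, plus strand, between genes) is U2, with position 109 in capitals. Gm24407 (chr5:115490254-115490394, plus strand, between genes), Gm22710 (chr1:118459141-118459265, minus strand, within Clasp1 and the antisense transcript 2900060B14Rik) and Gm23031 (chr5:92302174-92302292, plus strand, in introns of Sdad1 and of the antisense gene Gm43599) carry in capitals the stretch that typed them as U4, U4atac and U6atac. Gm25112 (chr12:116476896-116476999, minus strand, between genes) and Gm25322 (chr1:119530211-119530314, plus strand, over an exon of 3830432H09Rik on the other strand) are U6 copies, with the U6 box in capitals where it is present.
Rnu2-10: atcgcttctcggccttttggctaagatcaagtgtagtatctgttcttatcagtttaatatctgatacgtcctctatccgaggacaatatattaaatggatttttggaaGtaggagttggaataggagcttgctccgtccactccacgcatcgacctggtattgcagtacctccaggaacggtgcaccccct
Gm24407: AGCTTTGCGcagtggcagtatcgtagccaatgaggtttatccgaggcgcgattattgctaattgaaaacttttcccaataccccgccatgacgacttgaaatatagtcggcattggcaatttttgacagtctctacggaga
Gm22710: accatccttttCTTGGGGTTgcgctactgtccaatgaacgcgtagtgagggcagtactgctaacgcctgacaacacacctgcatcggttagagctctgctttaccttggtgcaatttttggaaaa
Gm23031: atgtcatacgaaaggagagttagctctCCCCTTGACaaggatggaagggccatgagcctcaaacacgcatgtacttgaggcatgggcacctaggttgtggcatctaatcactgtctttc
Gm25112: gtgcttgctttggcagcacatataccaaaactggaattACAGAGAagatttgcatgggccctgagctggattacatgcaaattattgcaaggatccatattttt
Gm25322: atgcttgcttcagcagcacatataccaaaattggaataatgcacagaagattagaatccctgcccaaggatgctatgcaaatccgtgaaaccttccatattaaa

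Short stretches known for each type were searched on the RNA strand only, as a description. The U1 5′ end ACTTACC stood in 40 of 60 U1 members and in 4.88% of all 1333 snRNAs with a sequence. The branch site box GTAGTA stood in 12 of 13 U2 members (3.83% of all). For the binding site of the Sm proteins, ATTTTTG stood in all 13 U2 members (3.45% of all) and ATTTTTT in all 5 U5 members (4.05% of all). ACAGAGA, the U6 box, was in 40.0% of all and in 3 of the 5 U6 members, among them Gm25112 and not Gm25322. A missing stretch says only that these letters are not in the copy.

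Levels spanned a wide range. The highest mean was that of Gm22513, a U1 copy, at 2169 RPM, followed by Rnu1a1 and 6 Gm copies of the same sequence (Gm22068, Gm25679, Gm22634, Gm26444, Gm22317 and Gm23804) at 1952 RPM each. Rnu1b1 and Rnu1b2, also identical to each other, stood at 1508 RPM and Rnu1b6 at 1386 RPM. The lowest members were Gm25176 (17.31 RPM) and Gm22249 (17.25 RPM), both U4, at places 99 and 100, and just outside stood the U4 copy Gm23214 (17.20 RPM) and Rnu7 (17.15 RPM). Those 4 values differed by less than the spread between libraries. Set per kilobase of RNA, since the types differ in length, the mean level was 11903 RPM for Rnu1a1, 1993 for Rnu2-10, 1092 for Gm25112, 794 for Gm24407, 299 for Rnu5g, 209 for Gm22710 and 146 for Gm23031.

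Rows with identical sequence had equal counts in every library, so a read that fits several copies was counted at each of them. The 100 members therefore held only 84 distinct sets of counts, and their levels cannot be added. A count for 1 member says how many reads fitted its sequence, not that its gene was transcribed, and members that share sequence share reads. The 100 took 95.8% to 99.1% of all counts on snRNA rows in a library. This share and the next ones are of counts, where 1 read can stand at several rows, and not of reads. All snRNA rows together took 3.17% ± 2.02 (SD, n = 14) of the counts in EVs and 2.43% ± 0.886 (SD, n = 14) in plasma, in libraries of 4764338 to 52753818 counts (EVs) and 928651 to 23905651 (plasma).

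The level of a U1 copy went with 1 stretch of its sequence. Of 145 windows of 20 bases along Rnu1a1, 5 overlapping ones, starting at positions 80 to 84, split the 60 U1 members without overlap. The 28 members that held positions 81 to 100 unchanged had a mean of at least 655 RPM (median 1511), and the 32 without them had at most 495 RPM (median 87.4). Per kilobase the lowest holder stood at 4117 RPM and the highest other copy at 3587. The split held in 20 of 28 libraries taken 1 at a time. The window was found in these same values and the levels chose the members, so this is a description with no test. In Gm23680, printed above, this stretch differs from Rnu1a1.

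**Figure D1:**
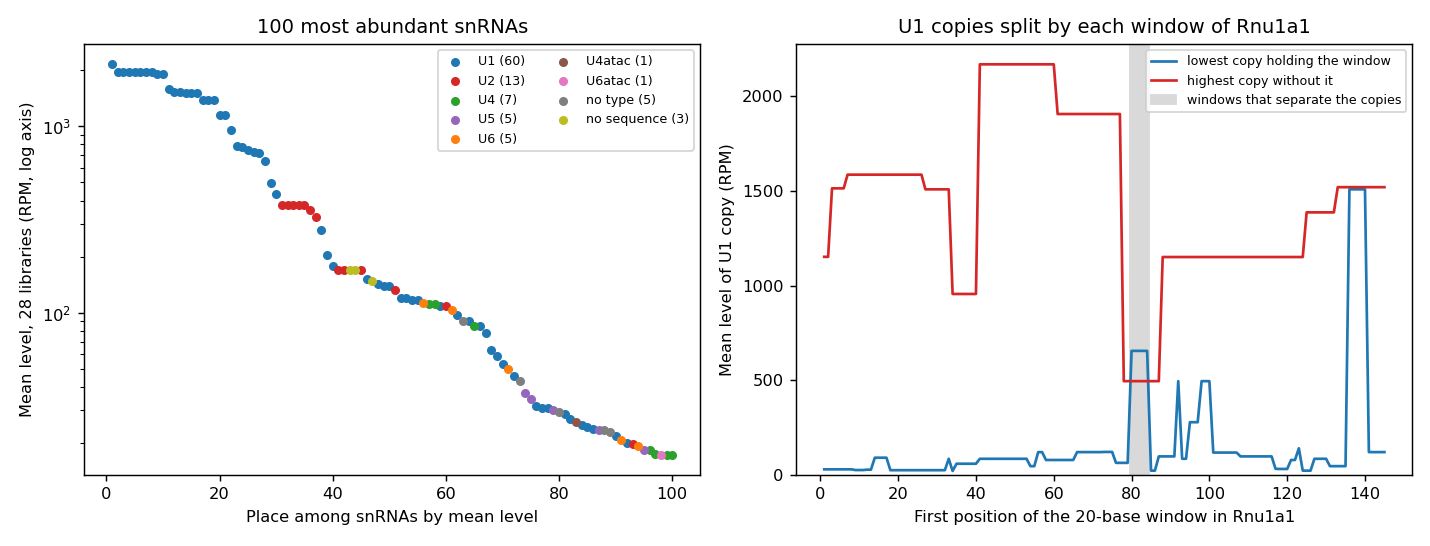
Left, mean level of each of the 100 snRNAs over 28 libraries (RPM, log axis) against its place, coloured by type (U1 copies, in blue, fill the highest places). Right, for each 20-base window of Rnu1a1 (x axis, first position), the mean level (y axis, RPM) of the lowest U1 copy that holds the window (blue) and of the highest copy without it (red). Windows in the grey band, starting at positions 80 to 84, put all holders above all other copies (655 against 495 RPM).

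Copies that differ from each other at a single base differ in the reads that fit them there, and since both are read in the same library their ratio does not depend on how libraries are scaled. Among the members, which their levels had selected, 9 pairs of equal length differed at 1 base, with equal sequences taken once. Within the members sequence set the pairs, and between Gm copies the one of higher mean level was the reference. In each substitution below, the first letter is the reference's base and the last the copy's, and positions count from 1 at the 5′ end. For each pair the reads of the copy were taken as a percent of those of the reference and compared between the EV and plasma libraries of each mouse (exact sign-flip permutation test over 14 mice, 2-sided, adjusted by Benjamini-Hochberg over the 9 pairs). The analysis was chosen after the data had been seen.

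The clearest differences lay in U2. Gm26316 differs from Rnu2-10 by C170T, near the 3′ end, and its reads were 66.8% to 89.1% (median 82.1%) of those of Rnu2-10 in EVs and 79.0% to 94.2% (median 91.0%) in plasma. It was lower in EVs in all 14 mice, with a mean difference of EVs minus plasma of -9.11 percentage points ± 3.32 (SD, n = 14, exact p = 0.000122, adjusted p = 0.000549). Gm23444 differs by G109C, in the middle of the RNA, and its reads were 38.6% to 59.3% (median 46.05%) of those of Rnu2-10 in EVs and 31.7% to 52.4% (median 39.5%) in plasma. Here the EV value was the higher one in all 14 mice, by 7.73 points ± 4.95 (SD, n = 14, exact p = 0.000122, adjusted p = 0.000549). That p is the smallest 14 mice allow. Between Gm24497 and Gm23444, which differ by C186A close to the 3′ end, the difference was -6.72 points ± 5.02 (SD, n = 14, lower in EVs in 12 of 14 mice, exact adjusted p = 0.00256). The percent for the base in the middle of U2 was thus higher in EVs, and those for the bases near its 3′ end were lower.

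In U1, bases near the 5′ end differed between the fractions and bases near the 3′ end did not pass the test. Gm24305 (A26G) had 76.6% ± 8.06 of the reads of Rnu1a1 in EVs and 84.3% ± 6.80 in plasma (SD, n = 14, lower in EVs in 11 of 14 mice, exact adjusted p = 0.0253). Gm25890 differs from Rnu1b2, which has the sequence of Rnu1b1 printed above, by T33C and had more reads than its reference in all 28 libraries, 136% ± 14.7 in EVs and 122% ± 10.4 in plasma (SD, n = 14, higher in EVs in 11 of 14 mice, exact adjusted p = 0.0242). Gm22042 against Gm25890 (T22C) stood at 74.5% ± 8.53 in EVs and 82.7% ± 7.58 in plasma (SD, n = 14, exact adjusted p = 0.0253). Rnu1a1 and the other near copies of Rnu1b1 hold C at position 33, so there the reference carries the less common base. At positions 26 and 22 the copy carries it. In each of these pairs the less common base was thus on average lower in EVs relative to the other. The adjusted p of these U1 pairs rose to 0.0505 without the 2-month mice replicates 2 and 3, and those of Gm24305 and Gm22042 also without 6-month replicate 2 or 6-month replicate 3.

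Gm22513, the most abundant member, differs from Rnu1a1 by T60C and exceeded it in all 28 libraries, at 113% ± 5.04 in EVs and 112% ± 5.50 in plasma (SD, n = 14, exact adjusted p = 0.530). Gm26244 (G152C) and Gm24924 (C153T) each had close to 80% of the reads of Rnu1a1 in EVs (80.0% ± 6.03 and 80.1% ± 6.01, SD, n = 14) and 79.1% in plasma (± 6.33 and ± 6.31), with an exact adjusted p of 0.530 for both. The 3 percentages of U1 near the 5′ end rest on overlapping reads and are not independent of each other. The same holds for those of positions 152 and 153.

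**Figure D2:**
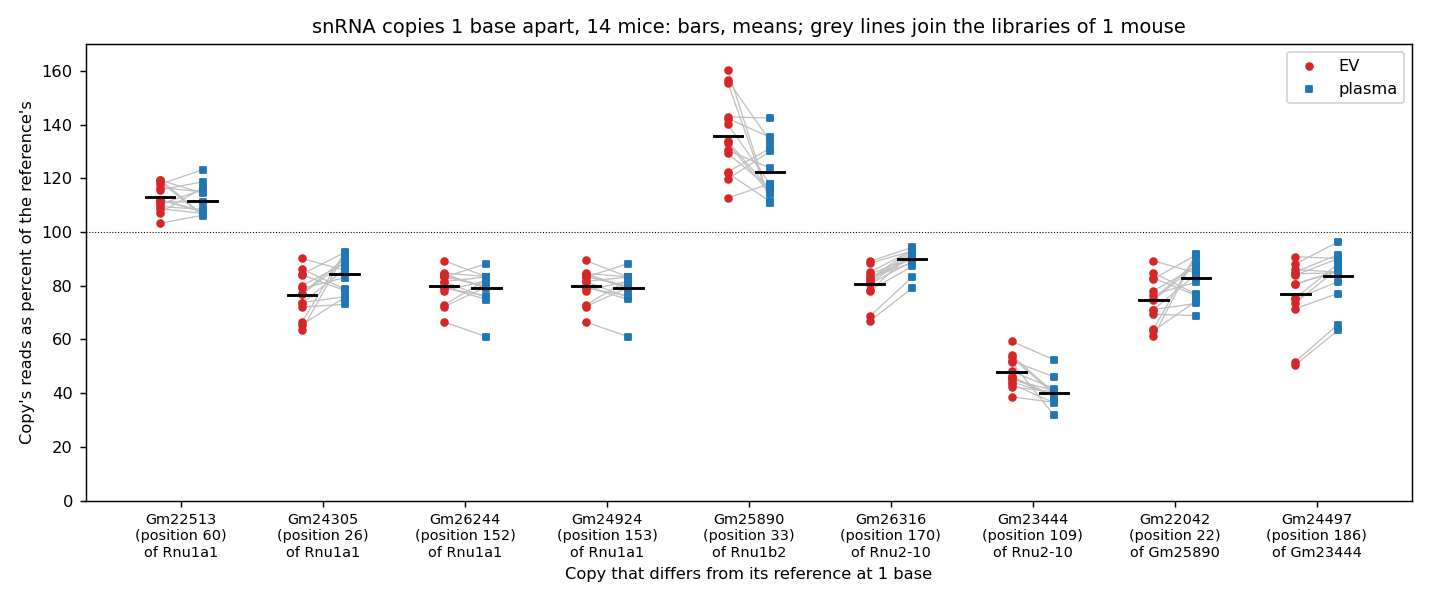
Reads of each copy as percent of those of its reference, which differs at 1 base (x axis, position in the RNA), in EV (red) and plasma (blue) libraries of 14 mice, with black bars at the means and grey lines joining 1 mouse. Every grey line of Gm26316 (position 170) goes up from EVs to plasma and every line of Gm23444 (position 109) goes down, while those of positions 60, 152 and 153 go both ways.

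The members differed between EVs and plasma, the contrast of vesicle-bound against free RNA. With libraries scaled by TMM, edgeR's normalization over all RNAs tested, 39 of 100 members were higher in EVs and 0 in plasma (edgeR quasi-likelihood test with age as covariate, Benjamini-Hochberg adjusted p under 0.05), where 10.0% of the 22323 RNAs tested were higher in EVs and 7.08% in plasma. By edgeR 2 members had an unadjusted p under 0.05 toward plasma, and DESeq2 called 57 toward EVs and 0 toward plasma. Shares of all RNAs are not given for these counts, so they have no background beside them. All 100 members passed the filter on low values. Fewer vesicles and less RNA per vesicle cannot be told apart in such libraries. The median log2 fold change was 0.76 over the members and -0.02 over all RNAs tested. By type, 31 of 60 U1 copies, all 5 U5 copies, 2 of 5 U6 copies and 1 untyped copy were higher in EVs, and none of the U2, U4, U4atac or U6atac copies was. Because copies share reads, these calls are fewer separate measurements than their count. Rnu1a1 and the Gm copies of its sequence, for example, are a single one.

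This count depended on the scaling. With the deposited RPM scaling the median over all RNAs tested moved to -0.45, and 9 members were higher in EVs (4.52% of all tested) and 2 in plasma (19.5% of all). With TMM over the snRNA rows alone, which sets each snRNA against the others, 11 were higher in EVs (4.69%) and 4 in plasma (21.4%). Relative to the median of all RNAs tested, the members' median was higher in EVs by 0.68 to 0.78 on the log2 scale under all 6 scalings. A scaling moves all RNAs of a library by the same factor, so this difference is nearly fixed by construction. Its agreement over scalings is therefore no support, and it sets abundant snRNAs against RNAs of all levels. Taking the mouse as a block, since both fractions came from 1 animal, 78 members were higher in EVs (11.1% of all tested) and 1, the U6atac copy, in plasma (7.53%). With this block 57 of 60 U1, 4 of 13 U2, 3 of 7 U4, all 5 U5 and 4 of 5 U6 copies were higher in EVs, so the calls by type below, which come from the fit without it, rest on that choice. Without 2-month replicate 2 the count was 24 without the block, and without the 18-month mice 22, with no share of all RNAs given for either.

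U1 was higher in EVs than in plasma in most mice. Rnu1a1 stood at 931 to 5762 RPM (median 1774) in EVs and 695 to 3385 RPM (median 1318) in plasma, higher in EVs in 12 of 14 mice, with groups that overlapped. Its log2 fold change was 0.93 ± 0.31 (SE, edgeR adjusted p = 0.0361), and the 6 Gm copies of the same sequence have the same values. The call of Rnu1a1 was lost in 14 alternative settings, some of them with 1 mouse left out, and unchanged in 12. Rnu1b6 ranged from 611 to 3874 RPM (median 1376) in EVs and from 522 to 2219 RPM (median 984) in plasma, a log2 fold change of 0.97 ± 0.28 (SE, edgeR adjusted p = 0.0142). Rnu1b1 and Rnu1b2 reached 0.85 ± 0.33 (SE, edgeR adjusted p = 0.0736) and did not pass, but did with the mouse as a block (0.82 ± 0.15, SE, edgeR adjusted p = 0.000323). Gm22513 differed by 0.93 ± 0.30 (SE, edgeR adjusted p = 0.0296). None of these U1 RNAs passed with the RPM scaling, under which the median log2 fold change of U1 copies was 0.40.

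Of the U1 copies that held positions 81 to 100 of Rnu1a1, 16 of 28 passed with TMM, all 28 with the mouse as a block and 0 of 28 with the RPM scaling. Of all RNAs tested, 10.0% were higher in EVs with TMM, 11.1% with the block and 4.52% with the RPM scaling. U1 copies share reads, so these counts are not of separate measurements. Among the 32 copies without that stretch, 15 passed with TMM, 29 with the block and 6 with the RPM scaling. Gm23680 had the largest fold change among them, at a median of 112 RPM in EVs and 47.5 RPM in plasma, higher in EVs in 12 of 14 mice (log2 fold change 1.70 ± 0.29, SE, edgeR adjusted p = 9.17e-05).

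Only 4 members were higher in EVs under all 6 scalings, the U6 copies Gm25112 and Gm25322, Gm23680, and Gm22073, an untyped copy with 70.8% identity to U2. These 4 are named after their values were seen, and no share of all RNAs is given for calls under all 6 scalings. Gm25112 stood at 43.4 to 535 RPM (median 116) in EVs and 6.81 to 123 RPM (median 34.5) in plasma. Its log2 fold change was 2.61 ± 0.52 (SE, edgeR adjusted p = 0.000531) with TMM and 2.05 with the RPM scaling, and 12 of 14 mice had more of it in EVs. Gm25322 differed alike, by 2.63 ± 0.53 (SE, edgeR adjusted p = 0.000603). In the plasma library with the fewest reads, 4 reads of Gm25112 were counted. The other 3 U6 members did not pass with either scaling. With the mouse as a block Gm22421 (1.55 ± 0.40, SE, edgeR adjusted p = 0.00824) and Gm22448 (1.05 ± 0.27, SE, edgeR adjusted p = 0.00847) did, and Gm26176 did not (-0.25 ± 0.23, SE, edgeR adjusted p = 0.536).

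Toward plasma, 4 members were called under at least 2 of the 6 scalings: the minor spliceosome copies Gm22710 (U4atac, under 4) and Gm23031 (U6atac, under 2), the U2 copy Gm22423 (under 3) and the U1 copy Gm26121 (under 2). No share of all RNAs is given for calls under several scalings. Of all RNAs tested, 19.5% were called toward plasma with RPM (2 of 100 members) and 21.4% with TMM over snRNA rows (4 of 100). Such calls were thus rarer among the members. Gm22710 (U4atac) ranged from 4.61 to 58.4 RPM (median 10.9) in EVs and from 5.11 to 113 RPM (median 27.2) in plasma, lower in EVs in 12 of 14 mice. Gm23031 (U6atac) ranged from 2.45 to 25.8 RPM (median 8.12) in EVs and from 4.10 to 39.6 RPM (median 24.1) in plasma, lower in EVs in 13 of 14. With TMM neither passed (log2 fold change -0.87 ± 0.42, edgeR adjusted p = 0.164, and -0.56 ± 0.26, edgeR adjusted p = 0.147, SE). With the mouse as a block Gm23031 passed toward plasma (-0.58 ± 0.17, SE, edgeR adjusted p = 0.0157) and Gm22710 did not (-0.70 ± 0.25, SE, edgeR adjusted p = 0.0538). Gm22423 ranged from 4.79 to 25.4 RPM (median 14.4) in EVs and from 11.5 to 53.4 RPM (median 20.5) in plasma, lower in EVs in 13 of 14 mice. Its log2 fold change was -0.35 ± 0.23 (SE, edgeR adjusted p = 0.346) with TMM and -0.80 ± 0.26 (SE, edgeR adjusted p = 0.0250) with the RPM scaling, under which Gm22710 was the other member called toward plasma. Gm26121 was lower in EVs in 12 of 14 mice, at a median of 17.8 RPM against 24.2 RPM, with a log2 fold change of -0.13 ± 0.28 with TMM (SE, edgeR adjusted p = 0.828). The other minor spliceosome RNAs lay outside the 100: Rnu12 at place 107 and Rnu11 at place 115. With TMM, Rnu12 (log2 fold change 0.63 ± 0.40, SE, edgeR adjusted p = 0.317), Rnu11 (0.60 ± 0.26, SE, edgeR adjusted p = 0.115) and the histone RNA Rnu7 (0.87 ± 0.37, SE, edgeR adjusted p = 0.118) did not pass, and with TMM over miRNA rows all 3 turned below 0, to -0.10, -0.11 and -0.02.

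Without the mouse as a block no U2 or U4 copy was called higher in EVs. Rnu2-10 had 122 to 842 RPM (median 269.7) in EVs and 149 to 811 RPM (median 316) in plasma, and was higher in EVs in 4 of 14 mice. Its log2 fold change was 0.29 ± 0.29 (SE, edgeR adjusted p = 0.576) with TMM and -0.20 with the RPM scaling, so its direction turned with the scaling. With the block it was 0.27 ± 0.16 (SE, edgeR adjusted p = 0.266), and the U2 copies that passed then were Gm23444, Gm23472, Gm25939 and Gm25360 (0.52 to 0.70). U4 copies had a median log2 fold change of 0.54 with TMM and 0.06 with the RPM scaling, and with the block Gm24407 (0.70 ± 0.20, SE, edgeR adjusted p = 0.0177), Gm24265 and Gm25899 passed. Rnu5g (U5) stood at 15.6 to 90.1 RPM (median 36.6) in EVs and 16.8 to 57.4 RPM (median 26.5) in plasma, higher in EVs in 8 of 14 mice (log2 fold change 0.80 ± 0.24, SE, edgeR adjusted p = 0.0215), and no U5 copy passed with the RPM scaling.

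**Figure D3:**
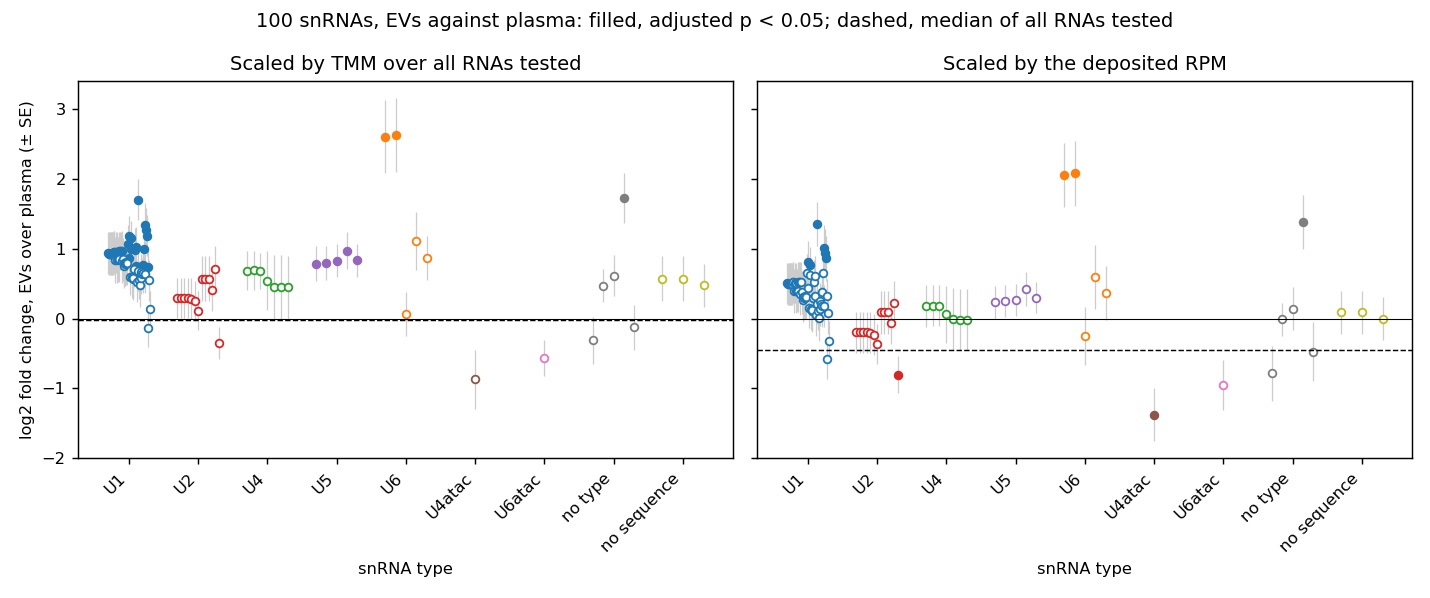
log2 fold change of EVs over plasma (± SE) for the 100 snRNAs by type, scaled by TMM (left) or by the deposited RPM (right); filled points have an adjusted p under 0.05 and the dashed line is the median of all 22323 RNAs tested. With TMM 39 points are filled, all above 0; with RPM 11 are, 9 above 0 and 2 below, and the dashed line lies at -0.45.

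To compare members of different types free of any scaling, 1 member per type (the most abundant Rnu-named member, or else the most abundant member) was divided by Rnu1a1 within each library. This comparison was added after the data were seen, with 6 ratios and adjustment over them (exact sign-flip permutation test over 14 mice, 2-sided). Relative to Rnu1a1, Rnu2-10 was lower in EVs than in plasma in 12 of 14 mice, with a mean difference of EVs minus plasma of -0.68 ± 0.44 on the log2 scale (SD, n = 14, exact adjusted p = 0.00122). Gm22710 (U4atac) was lower in 13 of 14 mice (-1.57 ± 1.06, SD, n = 14, exact adjusted p = 0.00122), and Gm23031 (U6atac) in 13 of 14 (-1.55 ± 0.92, SD, n = 14, exact adjusted p = 0.00122). The U6 copy Gm25112 was higher in 11 of 14 mice (1.80 ± 1.92, SD, n = 14, exact adjusted p = 0.00879), but it does not stand for all U6 copies. It shares 82.4% of its aligned bases with Rnu6, and Gm26176, with 91.5%, went the other way, lower relative to Rnu1a1 in 11 of 14 mice (-1.20 ± 1.27, SD, n = 14, not tested). The U6 copies Gm25322 (1.89 ± 2.00), Gm22421 (0.72 ± 1.70) and Gm22448 (0.10 ± 1.21, SD, n = 14, not tested) lay on the same side as Gm25112 in the mean, and for the last 2 the SD exceeded it. For U4 (Gm24407, -0.24 ± 0.66, SD, n = 14, exact adjusted p = 0.203) and U5 (Rnu5g, -0.21 ± 0.53, SD, n = 14, exact adjusted p = 0.185) the difference was within the spread between mice.

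Mice with more U1 in EVs also had more in plasma. Over 14 mice, on log2(RPM + 1), the levels of Rnu1a1 in both fractions had Pearson's r = 0.788 (permutation p = 0.000800, adjusted over 7 RNAs 0.00560) and Spearman's rho = 0.657 (permutation p = 0.0130, adjusted 0.0455). Without the 2 mice farthest from the median (6-month replicate 4 and 12-month replicate 2) r was 0.595 and rho 0.462. For Rnu2-10 r was 0.758 (permutation p = 0.00262, adjusted 0.00917), rho 0.776 (permutation p = 0.00178, adjusted 0.0125) and r without the same 2 mice 0.639. Gm25112 had r = 0.00241 (permutation p = 0.999) and Rnu5g 0.366 (permutation p = 0.198, adjusted 0.231). Gm24407 (0.591), Gm22710 (0.670) and Gm23031 (0.644) lay between, with an adjusted permutation p of r from 0.0205 to 0.0393 and of rho of 0.0777, and r of Gm22710 was 0.409 without its 2 farthest mice. Within ages, the deviations from the age means correlated with r = 0.721 for Rnu1a1, 0.593 for Rnu2-10 and -0.164 for Gm25112, a description. Both fractions of a mouse share its blood draw and handling.

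**Figure D4:**
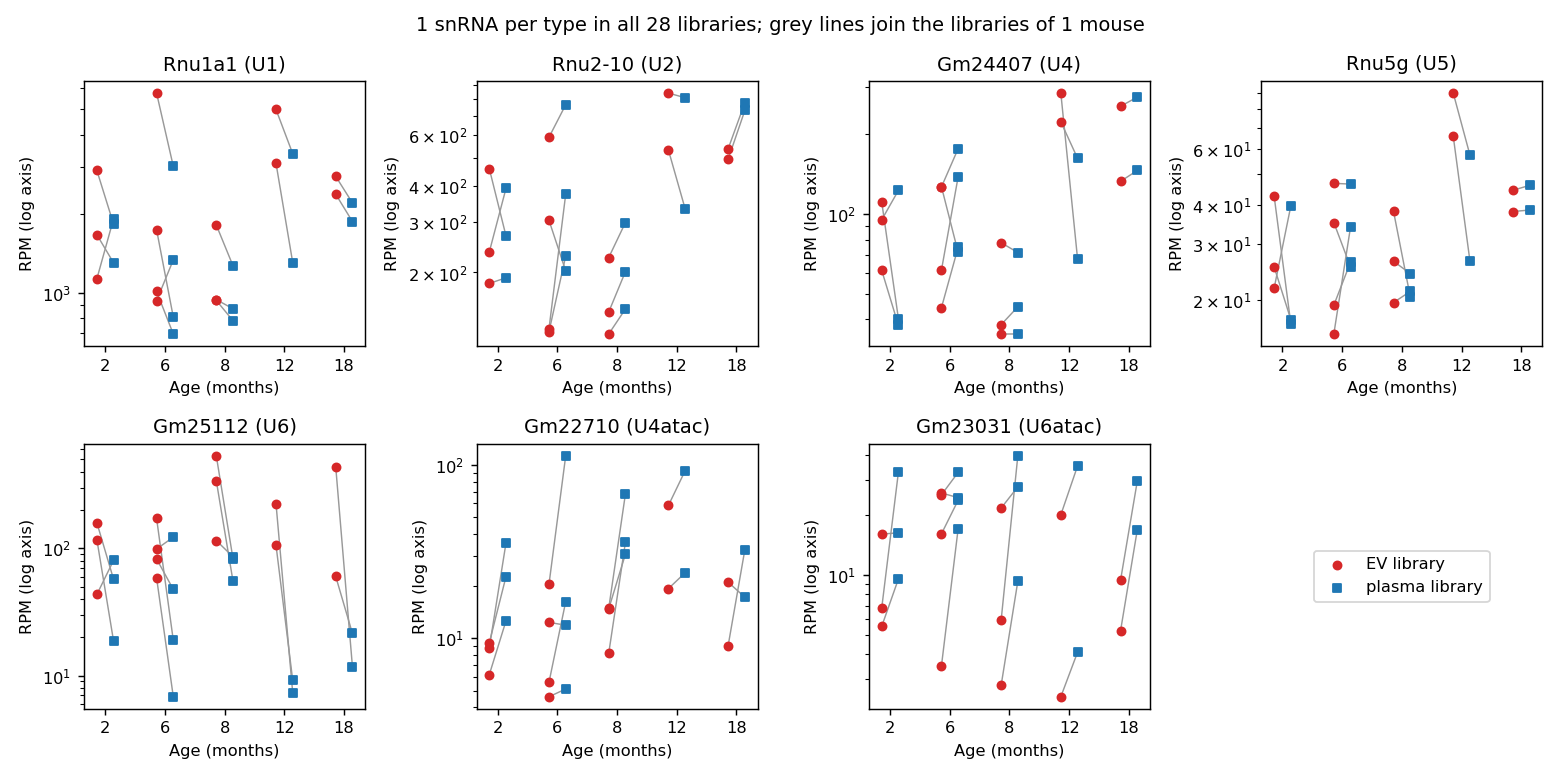
Level (RPM, log axis) of 1 snRNA per type against age (months) in the 28 libraries, EVs in red and plasma in blue, with grey lines joining the libraries of 1 mouse. Gm25112 lies higher in EVs in 12 of 14 mice and Gm23031 lower in 13 of 14, and the highest Rnu1a1 value, 5762 RPM, is the EV library of 6-month replicate 4.

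The second question of the design was whether levels followed age within each fraction. No member passed in plasma or in EVs. In plasma 0.0139% of the 21632 RNAs tested rose and 0.0% fell (slope per month, edgeR adjusted p under 0.05), and in EVs 0.0% of 18570 rose and 0.0% fell. DESeq2 called 0 members in either fraction. At an unadjusted p under 0.05, 23 members had a positive slope in plasma (4.19% of all tested) and 2 a negative one (3.1%), and in EVs 17 had a positive slope (4.46%) and 0 a negative one (1.34%). Because copies share reads, these are few separate measurements: the 23 in plasma were the 13 U2 copies, the 7 U4 copies and the 3 further transcripts of Gm23444, and the 17 in EVs were 8 U2 copies, the 7 U4 copies, Gm25099 (U5) and Gm22710 (U4atac).

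Rnu2-10 in plasma stood at 392, 192 and 268 RPM at 2 months, 375, 228, 202 and 767 at 6 months, 201, 298 and 149 at 8 months, 333 and 811 at 12 months and 779 and 733 at 18 months. Both 18-month values lay above all of those at 2 and 8 months, and single libraries at 6 and 12 months were as high. In EVs it stood at 236, 183 and 460 RPM at 2 months, 127, 125, 304 and 591 at 6 months, 146, 225 and 122 at 8 months, 534 and 842 at 12 months and 538 and 495 at 18 months. Its slope was 0.08 ± 0.03 per month on the log2 scale in plasma (SE, edgeR adjusted p = 0.670) and 0.09 ± 0.04 in EVs (SE, edgeR adjusted p = 0.840).

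Gm24407 (U4) in EVs stood at 94.9, 61.2 and 111 RPM at 2 months, 61.2, 44.2, 127 and 126 at 6 months, 38.1, 77.8 and 35.2 at 8 months, 286 and 223 at 12 months and 255 and 133 at 18 months. The 4 libraries of the 2 oldest ages were the highest of the 14. Its slope was 0.10 ± 0.03 per month (SE, edgeR adjusted p = 0.685), the smallest p of any member in EVs, beside Gm24265 and Gm25899, also U4. In plasma the smallest p belonged to the U2 copies Gm22423 (slope 0.07 ± 0.02, SE, edgeR adjusted p = 0.628) and Gm26316 (0.08 ± 0.03, SE, edgeR adjusted p = 0.670) and to Gm24265. Without the 18-month mice the slope of Gm22423 in plasma was 0.01.

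U1 showed less. The slope of Rnu1a1 was 0.02 ± 0.04 per month in plasma (SE, edgeR adjusted p = 0.963) and 0.06 ± 0.04 in EVs (SE, edgeR adjusted p = 0.983), and no U1 copy reached an unadjusted p under 0.05 in either fraction. Its 8-month values were low in both fractions, 934 to 1811 RPM in EVs and 782 to 1265 RPM in plasma, and its 12-month values reached 4990 and 3385 RPM. By the measure of the study, Spearman's rho of RPM with age over 0.5, 3 members qualified in EVs (1.59% of all tested) and 3 in plasma (5.98% of all), all U4, U5 or U4atac copies, and none had a rho under -0.5 (1.2% of all in EVs and 2.09% in plasma).

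No age trend differed between the fractions (edgeR interaction test, 0.0% of 22323 RNAs, DESeq2 0 members), and 2 members had an unadjusted p under 0.05 (4.0% of all tested). They were the U6 copies Gm25112 and Gm25322. Gm25112 in plasma stood at 57.1, 18.6 and 80.6 RPM at 2 months, 6.81, 18.9, 123 and 47.6 at 6 months, 82.8, 55.2 and 85.9 at 8 months, 7.30 and 9.17 at 12 months and 11.7 and 21.4 at 18 months. In EVs the same ages held 43.4 to 159, 58.7 to 172, 115 to 535, 106 to 225 and 60.2 to 440 RPM. The slopes were -0.15 ± 0.07 per month in plasma and 0.07 ± 0.06 in EVs (SE), and their difference was 0.22 ± 0.10 per month (SE, edgeR unadjusted p = 0.0334, adjusted p = 1). The third smallest p was that of Gm26121, a U1 copy (difference 0.10 ± 0.05, SE, unadjusted p = 0.0529).

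**Figure D5:**
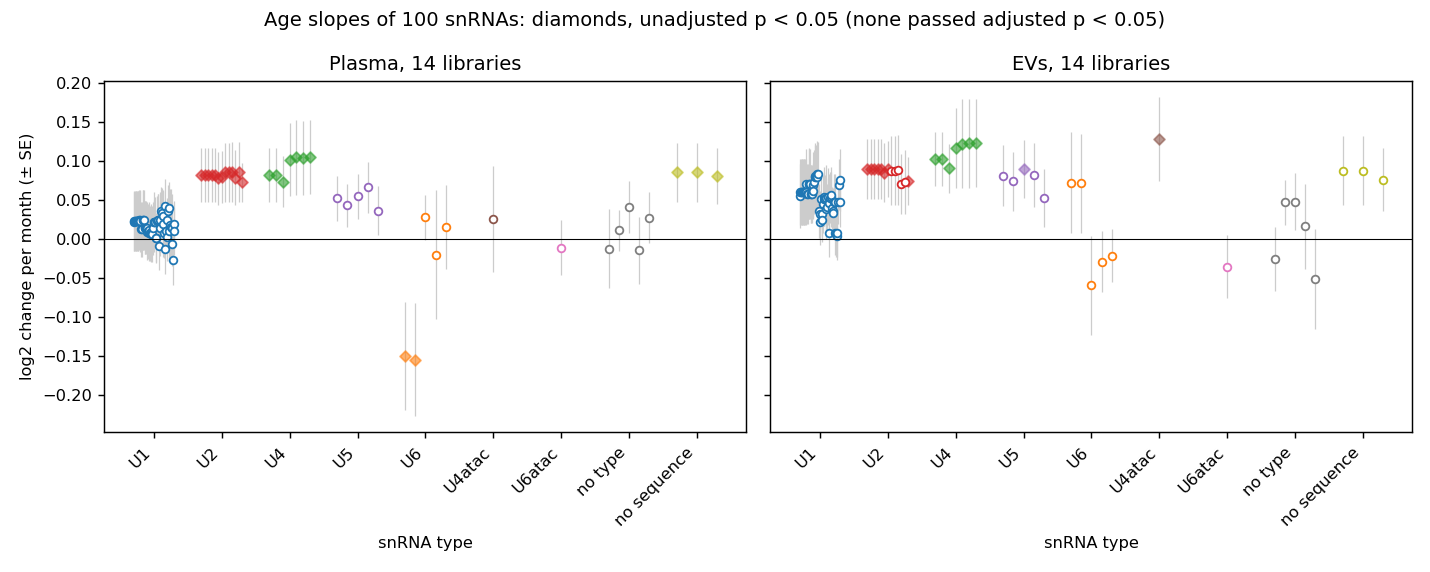
log2 change per month (± SE) of each of the 100 snRNAs by type in plasma (left) and EVs (right); diamonds have an unadjusted p under 0.05, and no member passed after adjustment. The 13 U2 and 7 U4 copies lie above 0 in both fractions, and in plasma the U6 copies Gm25112 and Gm25322 lie near -0.15.

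Related RNAs were read from lists. Of 51 rows of scaRNAs, which guide the modification of snRNAs, 22 were tested between fractions, 11 were higher in EVs and 0 in plasma with TMM (11 and 1 with the RPM scaling), with a median log2 fold change of 1.07. Of all RNAs tested, 10.0% were called toward EVs with TMM and 4.52% with the RPM scaling. Of the 1246 snRNAs outside the 100, 308 were tested, 40 were higher in EVs and 17 in plasma with TMM (17 and 32 with the RPM scaling), with a median of 0.08. These shares, 13.0% and 5.52% with TMM, lie near the 10.0% and 7.08% of all RNAs tested, and with the RPM scaling 5.52% stands beside 4.52% toward EVs and 10.4% beside 19.5% toward plasma. Neither list had a member that passed with age.

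Other nuclear RNAs and markers of cells were measured beside the snRNAs. Rn7sk and Rmrp, nuclear RNAs of other particles, were higher in EVs in 13 of 14 mice each (median 20.2 against 12.1 RPM and 18.1 against 4.90 RPM), the long nuclear RNA Neat1 likewise in 13 and Malat1 in 3, while Xist was lower in EVs in all 14. Rpph1 was not among the rows. Red cell microRNAs summed to 551 to 4599 RPM in EVs and 750 to 3376 RPM in plasma (6 of 6 found), platelet microRNAs to 60.5 to 401 and 46.2 to 268 RPM (3 of 3), liver microRNAs to 17.1 to 225 and 12.6 to 161 RPM (2 of 3) and skeletal muscle microRNAs to 0.489 to 8.08 and 0.757 to 8.01 RPM (3 of 3), and none of the rows found was at 0 in all libraries. In 6-month replicate 4, whose EV library held the most Rnu1a1, the liver sum was the highest of the EV libraries (225 RPM) and the platelet sum the highest of the plasma libraries (268 RPM), while its red cell sums ranked in the middle. Its skeletal muscle sum was also the highest of the plasma libraries (8.01 RPM). Malat1 was the highest of the EV libraries (137 RPM) and Neat1 the lowest (87.3 RPM). The part of such cells in the snRNA levels was not tested.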

How the data were processed

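Small RNA libraries from the EVs and plasma of 14 mice were analysed from 2 deposited tables that the authors made. Per the labels, the submitters' processing notes name mm10 and R 4.0.4. The paper's methods name Bowtie, Ensembl for ncRNAs such as snRNAs, and the keeping of only 1 paralog, without saying that this holds for the EV and plasma tables, in which copies of equal sequence have a row each. No source names how reads that fit several copies were counted in these tables. The first table holds estimated counts deposited without normalization, whole numbers in all snRNA rows (46 rows of other classes are not whole). The second holds a normalized signal, the authors' RPM, which is each count divided by 1 number per library (constant to 5.61e-06). That number is not the total count. Every column belonged to a sample of the series. Total counts ranged from 928651 to 52753818, and 1 read was worth 0.0722 to 1.70 RPM, so intervals at low levels are wider in shallow libraries, and counting error is only part of the spread between mice.

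Groups came from the labels. Mice were taken as separate animals from the labels, and the EV and plasma libraries of 1 mouse were treated as a pair. The plasma labels of 2-month replicates 2 and 3 share 1 code, and their replicate numbers were used instead. To check the pairs, the deviations of both libraries of a mouse from their age means were correlated over the 100 members. Since both mice of an age with 2 mice share 1 r by construction, this gave 12 separate values, with a median r of 0.411 (from -0.205 to 0.653, over 0.1 in 10 of 12). Mismatched libraries of different ages had a median r of 0.00906 (154 pairs, from -0.744 to 0.770, 68 over 0.1), so the check is weak for any 1 mouse, and the pairs rest on the labels. No 2 libraries held identical counts.

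Counts were rounded and tested with edgeR 4.0.16 (quasi-likelihood, TMM over all RNAs tested, Benjamini-Hochberg over all) in R 4.3.3, on RNAs of all classes with at least 1 RPM in at least 2 of the 14 libraries of a fraction. Fractions were compared with age in months as covariate, age as a slope per month within each fraction, and their difference as an interaction. On simulated data with 200 changed RNAs, 89% were recovered at a log2 fold change of 2 between fractions (22323 RNAs), and at a slope of 0.2 per month 72.5% in plasma (21632 RNAs), 61.5% in EVs (18570 RNAs) and 22% in the interaction (22323 RNAs). The members' median log2 fold change was 0.76, and the median plasma slopes of U2 and U4 copies were 0.08 and 0.10 per month. Recovery at such smaller effects was not simulated. Alternatives were other scalings, DESeq2 1.42.0, other filters, equal rows collapsed, mice left out, a mouse block, log2 of age and Spearman's rho. Exact and permutation tests (16384 sign flips, 100000 resamples) used scipy 1.17.1, and alignments Biopython 1.88, scored locally against GENCODE M21.

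The members and lists were chosen with earlier results of these data known. Named RNAs were the Rnu-named members, the 5 Gm-named members of highest mean, the called members of largest fold change that moved alike in every mouse (there were 0), the 3 of smallest p for each age test, Rnu7, Rnu11 and Rnu12, and places 99 to 102. Rnu4atac and Rnu6atac were not found among the symbols. Others named were picked after their values were seen. A U5 sequence and its letters are not reported here.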

Additional observations from a re-analysis of the deposited data

Results flagged for a closer look

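In the groups of 4 libraries, the only ones of a size to be tested for a library far from the others (16 groups over 7 RNAs and the snRNA share of counts; chance flags about 1 in 20), Rnu1a1 in EVs of 6-month replicate 4 stood at 5762 RPM against 931 to 1737 RPM in the other 6-month mice (gap over range 0.833, limit 0.829). Gm22710, the U4atac copy, stood at 113 RPM in plasma of the same mouse against 5.11 to 16.3 RPM in the others (0.896). Without this mouse 45 of 100 snRNAs were higher in EVs, with no share of all RNAs given.

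In 3 of the RNAs that stand for a type, all mice of 1 age lay one way and all of another age the other way between EVs and plasma (log2 of RPM + 1). The mean log2 ratio of EVs over plasma of Rnu2-10 was 0.37 at 12 months (2 of 2 mice higher in EVs), -0.39 at 8 months (3 of 3 lower) and -0.55 at 18 months (2 of 2 lower). For Gm24407 it was 1.26 at 12 months and -0.13 at 18 months, and for Rnu5g 0.96 at 12 months and -0.032 at 18 months (2 of 2 mice each). These differences between ages were not tested.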

How the results depend on the processing

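The count of 39 snRNAs higher in EVs was 9 with the RPM scaling, 7 with total counts, 4 with TMM over miRNA rows, 11 with TMM over snRNA rows and 22 without the 18-month mice, and 78 with the replicate block by mouse (67 with the block and without the 2 uncertain 2-month pairs). Leaving out 1 mouse gave 24 (2-month replicate 2) to 46. The count of 0 higher in plasma became 2 with the RPM scaling, 1 with total counts, 6 with TMM over miRNA rows, 4 with TMM over snRNA rows and 1 with the replicate block (0 with the block and without the 2 uncertain 2-month pairs), and 0 to 1 without 1 mouse. Of all 22323 RNAs tested, 669 were higher in EVs and 1842 in plasma with total counts. With TMM over miRNA rows these were 768 and 5927. For settings that leave out mice no share of all RNAs is given, so those counts have no background beside them. The age and interaction counts stayed at 0 without any 1 mouse (0 to 0). Spearman's rho, a cut-off and not a test, was over 0.5 for 3 members in plasma (5.98% of all tested) and 3 in EVs (1.59%). With no filter on low values 2 members (Gm25112 and Gm25322) passed as falling in plasma, with no share of all RNAs given. The log2 fold changes of Gm26316 (0.11) and Rnu2-10 (0.29) were below 0 under 4 of the 6 scalings: with RPM (-0.37 and -0.20), total counts (-0.41 and -0.26), TMM over miRNA rows (-0.59 and -0.44) and TMM over snRNA rows (-0.35 and -0.18). Those of Rnu11, Rnu12 and Rnu7 were below 0 with TMM over miRNA rows only, and those of the U4 copies Gm25176, Gm22249 and Gm23214 with that and with RPM. Among single named RNAs, 89 alternatives lost a call, 27 gained one, 788 changed none and 1 passed in the opposite direction. That was Gm26316 with TMM over miRNA rows, toward plasma (-0.59, edgeR adjusted p = 0.0244). Most of the lost calls repeat 1 measurement: Rnu1a1 lost 14, and so did each of Gm22068, Gm25679, Gm22634 and Gm26444, which have the same counts. The block left the interaction count at 0.

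Within-library ratios, tried only after the data were seen, kept their direction in all settings run. Without the 2 uncertain 2-month pairs, the differences of -8.09 (Gm24305), 14.4 (Gm25890) and -8.61 points (Gm22042) no longer passed (adjusted p = 0.0505). Leaving out 1 mouse gave -8.84 to -6.09 points for Gm24305 and -9.42 to -6.49 for Gm22042. TMM, RPM and total counts cannot be ranked by these data, and the cause of their disagreement was not tested. Slopes rest on 2 mice at each of the oldest ages, and shared reads make the counts of members fewer than they look.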
